A study of Mus musculus with 24 samples.

Results

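Of the 33715 CTCF sites found in all 3 parental CTCF lists of these mouse pro-B cell lines, 1891 (5.61%) had no peak in any of the 3 parental Rad21 lists. A CTCF site is a union of overlapping peaks on mouse chromosomes that a peak of each of the 3 CTCF lists overlaps, and a member is such a site with no base in common with a Rad21 peak. The other 31824 sites, called CTCF sites with cohesin here, had a Rad21 peak in 1 (4425 sites), 2 (7008 sites) or 3 (20391 sites) of the lists. The members were chosen by their parental CTCF and Rad21 peaks, so parental rank, width and distance to Rad21 describe that choice and are given without a test.

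Membership rested mainly on 1 library. Of the 4425 sites with a Rad21 peak in a single list, 4381 had it in replicate 1, which held 67810 mouse Rad21 peaks against 43925 and 29724 in replicates 2 and 3. Leaving replicate 1 out gave 6272 members. Leaving out replicate 2 or 3 gave 1931 or 1895. Leaving out a parental CTCF list gave 2882, 2467 and 2499 for replicates 1, 2 and 3. The absence of a peak from a list is not taken here as absence of cohesin.

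The series holds chromatin immunoprecipitation with sequencing (ChIP-seq) of v-Abl transformed pro-B lines, immature B-lineage cells immortalised by a viral kinase, and addresses how CTCF and cohesin act in V(D)J recombination. The lines are RAG2 deficient and carry Emu-Bcl2, and all of them received 3 µM STI-571, an inhibitor of the Abl kinase, for 4 days. The parental line was used without IAA (3 CTCF and 3 Rad21 libraries). The CTCF-degron line was used only with IAA (3 CTCF and 3 Rad21 libraries), so line and IAA change together between these groups. The Rad21-degron line was used without IAA (2 Rad21 libraries) and with it (2 Rad21 libraries). A degron is a protein tag that directs its carrier to degradation when the auxin IAA is present. IAA was given at 500 µM for 6 h and then together with STI-571. Parental Rad21 replicates 2 and 3, CTCF-degron Rad21 replicates 2 and 3 and all Rad21-degron libraries contained material of HCT116, a human colon cancer line, as a spike-in, and peaks on human contigs were not used. The labels do not say whether a degron line is 1 clone. Peak lists of 2 bound proteins hold no marker of cell type, so that label could not be checked. The lists carry no read numbers, so the depth of each library is unknown and its part in any difference was not tested.

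CTCF is a zinc-finger protein that binds a long DNA motif, and its binding direction matters for chromosome folding. Cohesin, whose ring includes Rad21, extrudes chromatin loops and is held up where CTCF is bound, so that most strong CTCF peaks of a cell population also show cohesin. Extrusion of this kind brings distant V gene segments to the recombination centre in B-lineage precursors. In the mouse, copies of the B2 family of short interspersed repeats are known to carry CTCF motifs.

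The sequences at these sites were examined first. The CTCF core was searched on both strands of the central 300 bp as CCA, any 2 bases, AG, any 2 bases and GGC. It lay in 844 of the 1818 members off chromosome 12 (46.4%), against 2.83% of windows 5000 bp to either side and 37.7% of the 30396 sites with cohesin. Sites with cohesin were wider (median 599 bp against 298 bp), so the window left out more of their sequence. Over the whole site the core lay in 48.0% of members, and sites with cohesin were not searched in that way. In 170 members the word TGTGGTT, known as a RUNX motif, began exactly 46 bases after the start of the core on the same strand. The next most frequent spacing occurred in 5 members. The following members hold this pair of words and ranked highest among those with it whose central 31 bp occurs once in the reference, leaving out chromosomes 18 and Y. They are shown because letters outside the capitals are also shared between them. Capitals mark the core and the second word. Positions are in mm9 (NCBIM37), 5′ to 3′ on the strand given.

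Ccl25 intron, chr8:4347059-4347140 (+ strand): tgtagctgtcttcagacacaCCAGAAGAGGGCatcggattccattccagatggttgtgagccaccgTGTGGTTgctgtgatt

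Intergenic near Cd209g, chr8:4141873-4141954 (- strand): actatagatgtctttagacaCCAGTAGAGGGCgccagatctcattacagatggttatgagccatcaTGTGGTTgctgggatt

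Uimc1 intron, chr13:55199375-55199456 (+ strand): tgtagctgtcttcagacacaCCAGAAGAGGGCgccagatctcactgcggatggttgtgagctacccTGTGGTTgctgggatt

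Abcb8 intron, chr5:23903310-23903391 (- strand): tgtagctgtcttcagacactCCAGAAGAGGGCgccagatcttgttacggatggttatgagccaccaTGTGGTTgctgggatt

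None of these 4 sites had a CTCF peak in any CTCF-degron list. A site with the same pair of words but with a Rad21 peak in all 3 parental lists shows that the pair is not limited to members. Its mean percentile rank was 99.6, against 51.2 for the Ccl25 site, the highest of the 4. It is not typical of its class: the median rank of sites with the pair was 60.8 with 3 Rad21 lists and 30.3 for members.

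Intergenic, chr11:78267331-78267412 (+ strand): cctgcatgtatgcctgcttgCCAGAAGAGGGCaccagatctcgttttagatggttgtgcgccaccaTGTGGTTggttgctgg

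By the same limits, the members with a core and without the pair that ranked highest look unlike each other outside the core, whose letters are again in capitals.

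Intergenic near Nts, chr10:101914566-101914647 (+ strand): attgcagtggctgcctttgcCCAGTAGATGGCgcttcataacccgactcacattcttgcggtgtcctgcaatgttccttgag

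Intergenic near Cdkn3, chr14:47345564-47345645 (- strand): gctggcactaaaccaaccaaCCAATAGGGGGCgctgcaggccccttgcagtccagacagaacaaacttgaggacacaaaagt

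Tns3 intron, chr11:8423969-8424050 (- strand): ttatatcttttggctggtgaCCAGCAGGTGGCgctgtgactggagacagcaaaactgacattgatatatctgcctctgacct

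The 2 members that ranked highest, by the same limits, among those with a CTCF peak in all 3 CTCF-degron lists hold no core in their central 300 bp, and no letters are in capitals. Their central 31 bp was searched only for exact copies in the reference, so near copies were not counted.

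Intergenic, chrX:143707526-143707605 (+ strand): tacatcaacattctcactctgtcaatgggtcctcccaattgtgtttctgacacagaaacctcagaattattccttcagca

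Intergenic, chr2:22600376-22600455 (+ strand): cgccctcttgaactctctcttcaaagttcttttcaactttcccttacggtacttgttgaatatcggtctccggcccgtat

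Members were narrow and weakly enriched. Their median width was 298 bp, against 599 bp for CTCF sites with cohesin, and the middle 50% ran from 217.5 to 415 bp. The authors' fold enrichment had a median over members of 4.13, 4.14 and 4.55 in parental CTCF replicates 1, 2 and 3, against 6.11, 6.21 and 7.36 at sites with cohesin. On the percentile scale of each list (100 is the most enriched peak), the mean over the 3 lists had a median of 37.3 for members and 67.0 for sites with cohesin. Of the members, 1255 (66.4%) lay in the weakest quartile of all CTCF sites, 576 in the second, 59 in the third and 1 in the strongest. The highest mean fold enrichment of any member was 9.37.

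**Figure D1:**
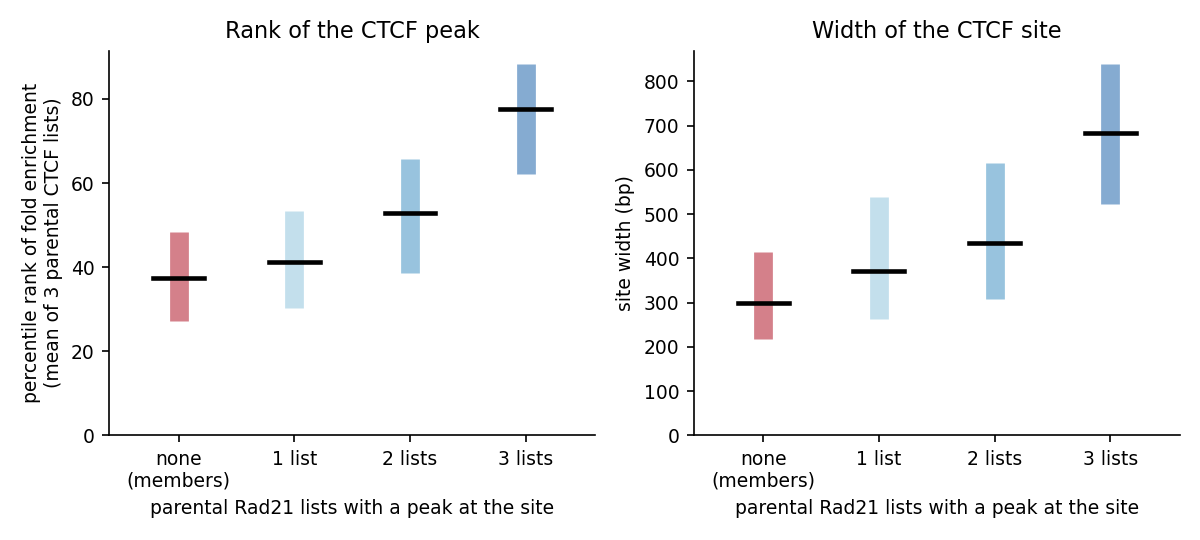
Percentile rank of the authors' fold enrichment (left, mean of the 3 parental CTCF lists) and site width in bp (right) for CTCF sites with a peak in none, 1, 2 or 3 of the parental Rad21 lists. Bars span the middle 50% of sites and black lines are medians, which go from 37.3 to 77.7 for rank and from 298 to 684 bp for width.

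The medians were ordered by the number of Rad21 lists. Sites with 1 list stood nearest to the members, with a median width of 372 bp and a median rank of 41.2. Those with 3 lists had a median width of 684 bp and a median rank of 77.7. A wider site has more bases that a Rad21 peak can overlap, so width counts among the values that chose the members.

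The edge of the rule was crossed by a few bases at some sites. The nearest parental Rad21 peak lay a median of 7158 bp from a member, 306 members had one within 1000 bp, and 192 had none within 100000 bp. Just inside was chr3:122626999-122627239, at the transcript start of 4933405D12Rik, with a gap of 13 bp. Just outside were chr13:81899987-81900186, intergenic, which shared 3 bp with a Rad21 peak, and chr17:29013935-29014069, in an exon of Pnpla1, which shared 6 bp. Mean ranks were 32.7 for the site inside and 14.9 and 39.0 for those outside. In all, 14 members lay within 50 bp of a Rad21 peak, and 68 other sites overlapped one by 50 bp or less.

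Members lay at transcript starts less often than the other sites. Off chromosome 12, 187 of 1818 members (10.3%) were within 1000 bp of an annotated transcript start, against 20.6% of sites with cohesin and 15.6% of sites with 1 Rad21 list. A start lay inside the site itself for 2.2% of members and 12.1% of sites with cohesin. A further 6.11% of members lay in exons, 37.4% in introns and 46.2% between genes, against 8.58%, 30.5% and 40.4% of sites with cohesin. The members' base composition was near that of the other sites, with a median G+C content of 45.0% and 3 CpG dinucleotides in the central 300 bp, against 47.0% and 4.

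Along the genome, members were 9.82% of the CTCF sites on chromosome X (121 of 1232) and from 3.53% (chromosome 3) to 7.29% (chromosome 4) of those on each autosome. Chromosome Y had 7 members among 35 sites. Counting only sites whose central 31 bp occurs once in the reference, the share on X was 7.68%, and the autosomes ran from 3.34% to 6.02%. The X chromosome thus had the highest share after Y in both counts.

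Several members stood in runs with less than 100000 bp from one to the next, which were picked out after the positions were seen. At chr4:61379588-61838577, which spans Mup3, Mup5, Mup19, Mup20 and Mup21 of the major urinary protein family, all 9 CTCF sites were members. Each of the 9 held a core, 5 had a multi-copy centre and none was kept in all 3 CTCF-degron lists. At chrX:131895305-132136681, around the RNA export factor gene Nxf7, 8 of 10 CTCF sites were members, 7 of them with a core and 7 with a multi-copy centre. The longest run was of another kind. At chrX:120319574-120863501, which holds 6 predicted genes, 18 of 102 CTCF sites were members, 17 of the 18 had a multi-copy centre, 1 had a core, and 14 were kept in all 3 CTCF-degron lists. At chr5:15112707-15215323, with Speer4c and Speer4d, 9 of 45 sites were members, none with a core and all with a multi-copy centre.

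Protein-coding promoters among the members belonged to genes of varied function. Of 119 members with a unique centre within 1000 bp of a protein-coding start, the 20 of highest rank had mean fold enrichments from 5.14 to 7.91, and 19 of them had no peak in any CTCF-degron list, where 95.2% of all members with a unique centre had none. The highest was chr11:61770001-61770518 at a start of Specc1, which encodes a cytoskeleton-associated protein, with fold enrichments of 7.55, 7.69 and 8.49. Duoxa1, a maturation factor of dual oxidase, had 6.95, 7.68 and 7.34 at chr2:122138380-122138999. The site of Snx19, a sorting nexin, at chr9:30234346-30234858 had 7.23, 6.60 and 7.82 and was the only one of the 20 with a peak in a CTCF-degron list, in 1 of the 3. At each of these sites the 3 libraries gave similar values.

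A core was present at 9 of the 20. They included Hps1 (lysosome-related organelle formation), Pinx1 (a telomerase inhibitor), Hoxa10 (a homeobox transcription factor), Homer3 (a scaffold protein), Vps8 (vesicle tethering), Trp53rk (a kinase of the tRNA-modifying KEOPS complex), Zfp169 (a zinc-finger protein), Bpifb4 and Snx19. The others were Specc1, Duoxa1, Espn (an actin bundler), Rasl10a (a small GTPase), Ccdc65 (a ciliary protein), Tor1aip2 (a torsin cofactor of the endoplasmic reticulum), Mthfd2l (a mitochondrial folate enzyme), Cdk18 (a cyclin-dependent kinase), Las1l (ribosome biogenesis), Nkd2 (an inhibitor of Wnt signalling) and Prkx (a protein kinase). The Hps1 and Prkx sites had a parental Rad21 peak 605 and 120 bp away, and the Hoxa10 site had none within 16033 bp.

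Members near genes of the B lineage were counted by gene list. Among all CTCF sites within 10000 bp of a transcript start, 4.92% of 17770 were members. Near 20 B-lineage transcription factor genes off chromosome 12, none of 51 CTCF sites was a member, and near 12 genes of V(D)J recombination and end joining none of 20 was. Near 16 pro-B surface and signalling genes, 1 of 34 was a member: chr11:106176987-106177305, 911 bp from a start of Cd79b, which encodes a signalling chain of the B-cell receptor. It held a core, had fold enrichments of 4.44, 3.48 and 3.75, lay 716 bp from a Rad21 peak and was lost in all 3 CTCF-degron lists. Near 15 genes of the cohesin and CTCF machinery, 1 of 19 was a member, at chrX:148450369-148450573 in Ribc1 and 398 bp from a start of Smc1a, a subunit of the cohesin ring. At these numbers of sites no list can be told from the share over all sites near starts.

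Ribosomal protein genes had 7 members among 145 sites (4.83%). The 4 with a unique centre lay near starts of Rpl3l, Rpl7l1, Rpl18 and Rplp1, at distances from 96 bp for Rpl18 to 3635 bp for Rplp1, and the other 3 had a multi-copy centre. All 7 were lost in all 3 CTCF-degron lists. Hox genes had 2 among 21. The Hoxd11 member, chr2:74524285-74524735, lay in an exon and had fold enrichments of 5.12, 5.05 and 6.97. The Hoxa10 member, chr6:52190336-52190657, had 6.68, 5.38 and 6.53. Both Hox sites were lost in all 3 CTCF-degron lists.

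Members carried a CTCF core as often in weak as in stronger sites. Its share was 46.4%, 46.5% and 46.4% in the first 3 rank quartiles, counted from the weakest. At sites with cohesin it was 28.7%, 38.4% and 41.1% in those quartiles, and in the weakest quartile sites with 3 Rad21 lists had it in 14%. Promoters ran the other way: in the weakest quartile 9.87% of members and 42.0% of sites with 3 Rad21 lists lay at a transcript start. Within that quartile, then, the weak sites with cohesin in every list were rich in transcript starts and poor in cores in the central 300 bp. The weak members were not. Median widths there were 478 bp for sites with 3 Rad21 lists and 270 bp for members, so the window covered less of the former.

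The core itself was dominated by 1 of its possible words. CCAGAAGAGGGC made up 351 of the 844 cores of members (41.6%), followed by CCAGTAGAGGGC with 48 (5.69%) and CCAGCAGAGGGC with 40 (4.74%). The first word made up 45.4%, 39.2% and 22.2% of cores at sites with 1, 2 and 3 Rad21 lists.

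The second word of the printed pairs was found in 17.6% of members and 11.2% of sites with cohesin, with 7.95% in the windows around members. The pair with its spacing of 46 bases accounted for 9.35% of members, against 7.53%, 4.77% and 1.84% of sites with 1, 2 and 3 Rad21 lists. Outside the pair, the word lay in 8.25% of members and 7.90% of sites with cohesin, close to the windows around them. The difference between the classes in this word therefore lay in the pair. The pair also followed rank: it was found in 12.2% of members and 6.86% of sites with cohesin in the weakest quartile, but in 3.96% and 4.70% in the second. The centre was multi-copy in 110 of the 170 members with the pair. No repeat annotation was used, so these sites were not assigned to a repeat family. The spacing was noticed in these data and is given as a description.

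**Figure D2:**
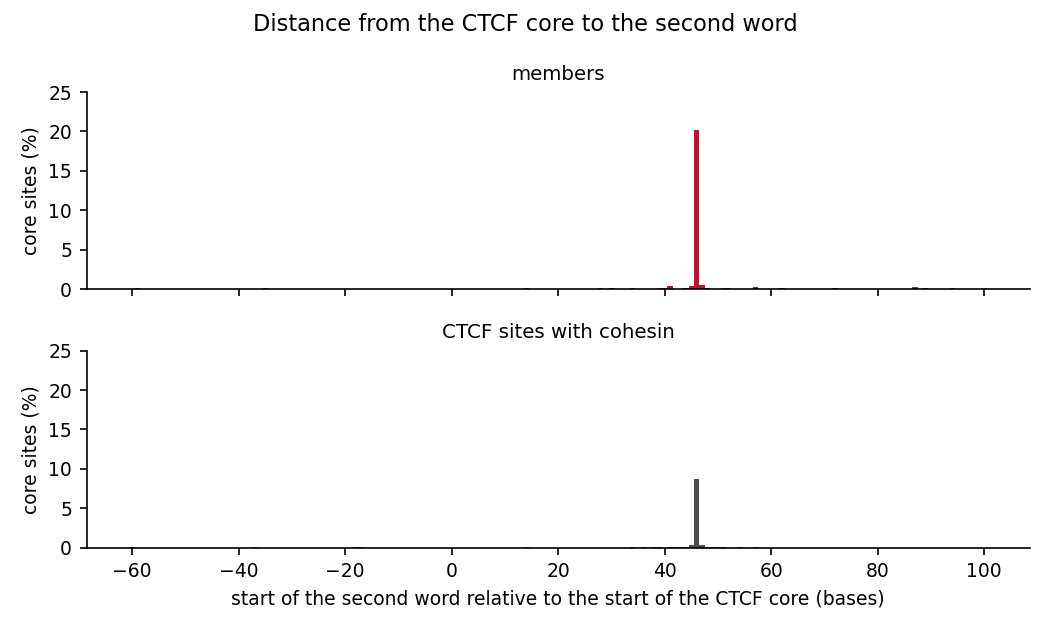
Distance in bases from the start of the CTCF core to the start of the second word on the same strand, as a percent of the sites with a core, for members (top) and CTCF sites with cohesin (bottom). In both panels 1 spacing, 46 bases, stands alone, at 20.1% of members with a core and 8.69% of such sites with cohesin.

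Of the other words searched, transcription factor motifs typical of promoters were scarcer among members than among all sites with cohesin. GGGCGGG, known as an SP/KLF motif, lay in 3.41% of members and 6.97% of sites with cohesin, and the ETS word CCGGAAG in 1.76% and 2.98%. Sites with 1 Rad21 list were near the members, at 4.19% for GGGCGGG and 1.66% for CCGGAAG. The E-box CAGGTG was found in 22.6% of members and 24.6% of sites with cohesin, and the AP-1 word TGACTCA in 5.56% and 4.91%. The NRF1, YY1 and ZNF143 words were found in 0.110%, 0.220% and 0.110% of members (2, 4 and 2 sites) and in 0.326%, 0.730% and 0.161% of sites with cohesin. The PU.1-type word AGGAAGTG lay in 2.09% of members and 2.95% of sites with cohesin, against 2.97% and 2.56% of the windows around them.

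The central 31 bp of 404 members off chromosome 12 (22.2%) occurred elsewhere in the reference, against 10.7% of all CTCF sites. Sites with 1 Rad21 list had the higher share, 26.5%. In the weakest quartile a multi-copy centre was found in 26.6% of members, 33.2% of sites with 1 Rad21 list and 19.2% of sites with cohesin, and in the second quartile in 14.2%, 19.1% and 11.9%. Reads that do not reach beyond a repeated sequence cannot be placed with certainty. How the authors treated such reads is not given in the sources used here. Only exact copies of the 31 bp were counted, so the share of reads concerned is unknown.

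The fate of members after CTCF depletion was read from lists that the rule did not use. A CTCF peak overlapped 8.25%, 8.41% and 7.67% of members in CTCF-degron replicates 1, 2 and 3, or 8.11% ± 0.390 (SD, n = 3). At sites with cohesin the values were 21.7%, 26.9% and 14.7%, or 21.1% ± 6.08 (SD, n = 3). The members were lower in each of the 3 libraries, and the groups of values did not overlap. With members chosen without parental Rad21 replicate 1, 17.2% of them were kept. The difference within libraries was -13.0 ± 5.70 percentage points (SD, n = 3; p = 0.25 in an exact two-sided sign-flip test, where 3 libraries allow no smaller value). No peak in any of the 3 lists was found for 1672 members (88.4%), where 71.7% of all CTCF sites had none. A peak in all 3 lists was found for 91 members (4.81%), against 12.9% of all CTCF sites.

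**Figure D3:**
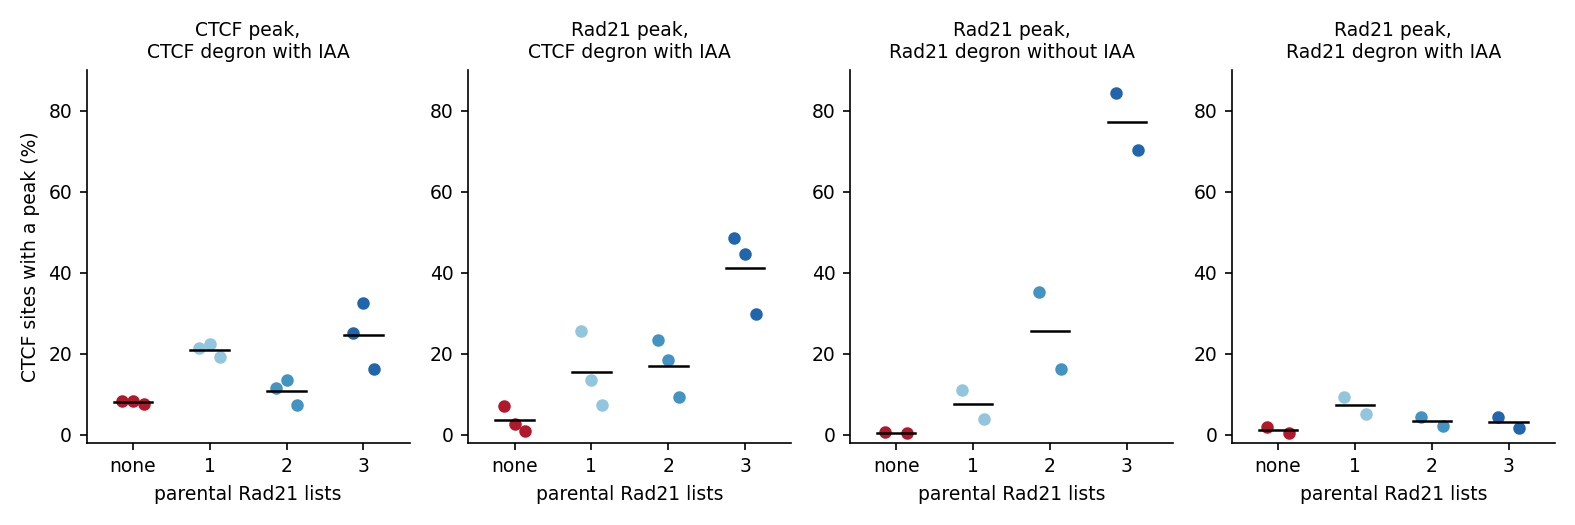
Percent of CTCF sites with a peak in each library that did not enter the choice of members, for sites with a peak in none (members, red), 1, 2 or 3 parental Rad21 lists. Points are libraries and lines are means: members had the lowest mean in all 4 panels, between 0.529% and 8.11%.

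The difference was also taken between sites of like rank. Averaged over the 3 rank quartiles with at least 30 members, it came to -9.94 ± 3.80 percentage points (SD, n = 3; exact two-sided sign-flip permutation p = 0.25). In the weakest quartile 10.4% ± 0.322 of members and 24.5% ± 6.36 of sites with cohesin were kept (SD, n = 3), and in the second 3.82% ± 0.796 and 10.6% ± 2.74. In the third, 59 members gave 1.13% ± 1.96, against 10.1% ± 5.18. Members were thus lower in each of the 3 quartiles compared, and weak members were kept more often than stronger ones. The strongest quartile held 1 member and was not compared, and 38.9% ± 11.4 (SD, n = 3) of its sites with cohesin were kept.

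**Figure D4:**
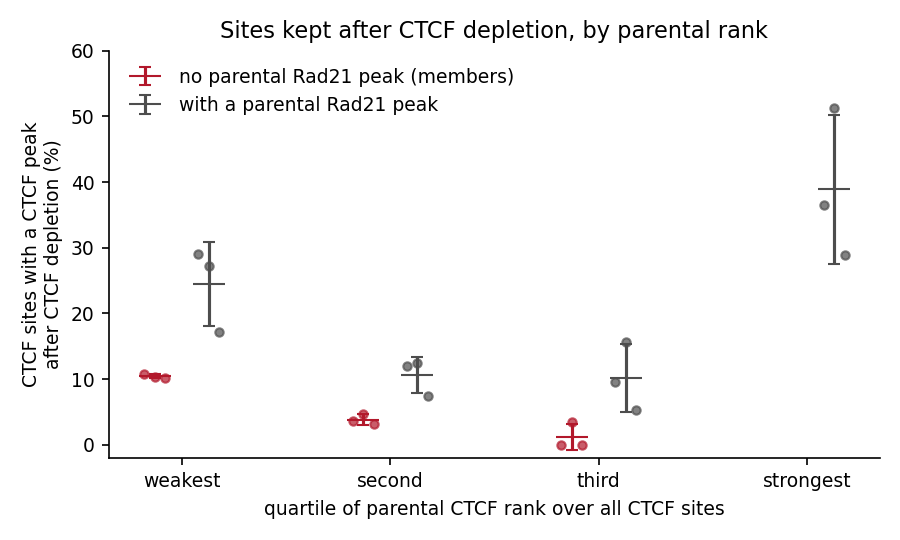
Percent of CTCF sites with a CTCF peak in the CTCF-degron lists, by quartile of parental CTCF rank. Points are the 3 libraries, horizontal marks their mean and error bars 1 SD: members lie at 10.4%, 3.82% and 1.13% in the first 3 quartiles, and the strongest quartile holds 1 member, which is not drawn.

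These differences depended on which sites count as members. Without parental Rad21 replicate 1 the difference over all sites was -3.86 ± 5.52 percentage points and the one within quartiles was 8.58 ± 4.38 in the opposite direction, since the sites with a Rad21 peak in replicate 1 alone, which were kept more often, then became members. Sites with 1 Rad21 list were kept in 21.5%, 22.4% and 19.2%, and members lay -12.9 ± 1.29 percentage points from them (SD, n = 3; exact sign-flip p = 0.25). At a q-value of 0.001 or less in every list the difference within quartiles was -3.80 ± 1.83, and with at least 50% of the site covered by the degron peak the difference over all sites was -2.80 ± 2.77.

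Members with a core were almost all lost. They were kept in 0.592%, 1.66% and 0.355% of cases, and 829 of 844 (98.2%) had no peak in any CTCF-degron list. Members without a core were kept in 14.8%, 14.3% and 14.2%. At sites with a core and cohesin, 13.4% ± 5.46 (SD, n = 3) were kept, a share led by the strong sites: in the weakest quartile it was 1.77% ± 0.888, beside 0.893% ± 0.472 for members. In the second it was 2.39% ± 1.46, beside 0.646% ± 0.807. Between weak sites with a core, then, the classes differed by less than 2 percentage points. Between weak sites without one they differed more, with 18.6% ± 0.544 of members and 33.1% ± 8.49 of sites with cohesin kept in the weakest quartile. Of the 170 members with the pair of words, 168 (98.8%) were lost in all 3 lists, as were 96.7% of the sites with the pair and cohesin.

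Members that were kept often had multi-copy sequence, and so did other kept sites. Members with a centre found once were kept in 2.90%, 3.68% and 2.40%, and those with a multi-copy centre in 26.7%, 25% and 26.5%. For sites with 1 Rad21 list the means were 9.36% and 53.7%, and for sites with cohesin 19.3% and 37.2%. Among the members kept in all 3 lists that lie off chromosome 12, 65 of 88 (73.9%) had a multi-copy centre and 3 (3.41%) a core. Among those lost in all 3, the shares were 16.3% and 51.6%. Sites with cohesin that were kept in all 3 lists had a core in 22.6% and a multi-copy centre in 23.2%. The kept members were also nearer to a parental Rad21 peak, at a median of 1031 bp against 8278 bp for the lost ones.

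**Figure D5:**
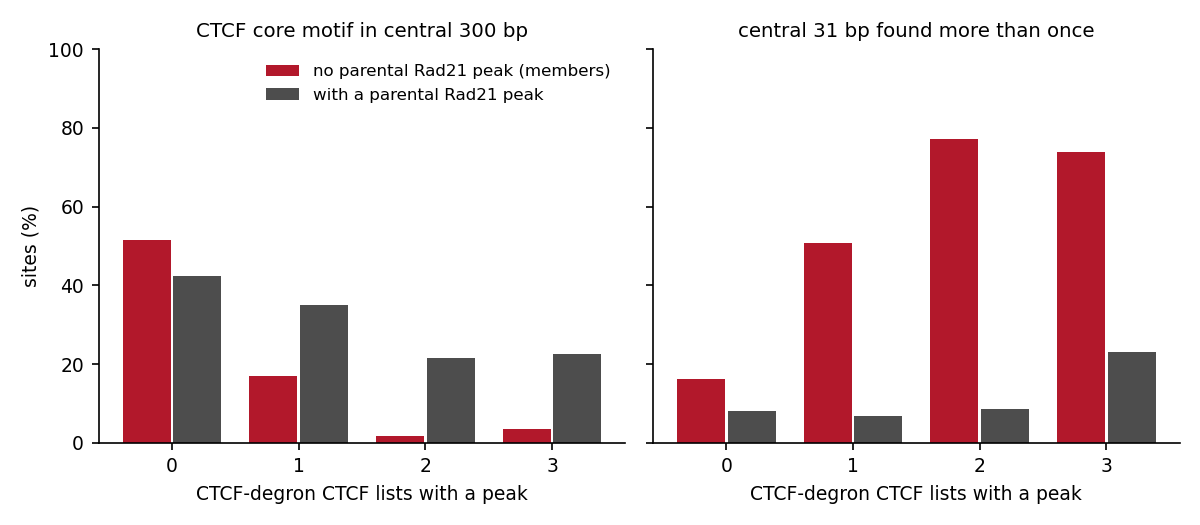
Percent of sites with a CTCF core in the central 300 bp (left) and with a central 31 bp found more than once in the reference (right), by the number of CTCF-degron CTCF lists with a peak at the site. Among members (red), the share with a core is 51.6% at 0 lists and 3.41% at 3, and the multi-copy share 16.3% and 73.9%.

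The highest-ranking members of each fate were drawn from groups of unequal size, so their highest ranks are not comparable. Before the limits on named sites, 1672 members were lost in all 3 lists and 91 were kept in all 3. The median parental ranks of these groups were 38.4 and 30.9. The lost member of highest rank, chr17:35693823-35694440 in an exon of Cdsn (corneodesmosin, a skin protein), had fold enrichments of 5.16, 11.1 and 11.8 in the parental lists, so replicate 1 lay well below the other 2 there. The next, chr10:101914201-101915059, is intergenic and 37993 bp from a start of Nts (neurotensin), held a core and had 8.72, 7.98 and 8.85. The third, chr14:37940600-37941319 in an exon of Ghitm (a mitochondrial inner membrane protein), had 8.14, 6.83 and 10.6. All were wide for members, at 618, 859 and 720 bp.

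The kept members of highest rank, drawn from the smaller group, were less enriched in the parental lists. At chrX:143707381-143707750 the values were 4.54, 4.80 and 5.20 in the parental lists and 5.83, 5.97 and 6.47 in the CTCF-degron lists. At chr2:22600350-22600482 they were 5.21, 4.22 and 4.99, then 6.80, 6.97 and 6.48. At chrX:120350855-120351203, within the longest run of members, they were 4.27, 4.88 and 5.13, then 4.19, 4.67 and 5.80. All 3 sites are intergenic and without a core. Whether their peaks hold reads from near copies, or from sequence missing from the reference, was not tested. A fold enrichment is relative to its own library and was not compared between groups.

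Where members kept a CTCF peak, that peak was of middling rank. In CTCF-degron replicates 1, 2 and 3 the kept members had a median percentile rank of 46.8, 45.1 and 48.3 within the list, against 67.6, 67.7 and 64.3 for kept sites with cohesin.

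The absence of Rad21 peaks at members was examined in the Rad21-degron line without IAA, whose lists the rule did not use. A Rad21 peak was present at 14 and 6 members in replicates 1 and 2 (0.740% and 0.317%), against 63.3% and 49.2% of sites with cohesin. The difference was -55.7 ± 9.68 percentage points (SD, n = 2; p = 0.5 in an exact two-sided sign-flip test, where 2 libraries allow no smaller value). Within rank quartiles it was -41.6 ± 11.5, a recalculation added after the values were seen. In total 20 members (1.06%) had a peak in at least 1 of the 2 lists, where 61.8% of all CTCF sites did. Sites with 1 parental Rad21 list had one in 11.0% and 4.00%, far nearer to the members than to sites with 3 lists, at 84.3% and 70.3%.

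With IAA, 34 and 8 members had a Rad21 peak (1.8% and 0.423%), and 37 members (1.96%) had one in at least 1 list, where 5.35% of all CTCF sites did. The mean over libraries was 0.529% ± 0.299 without IAA and 1.11% ± 0.972 with it (SD, n = 2 each; p = 0.667 in an exact two-sided permutation test that cannot go below 0.333), so the difference of 0.582 percentage points was within the spread between libraries. At sites with cohesin the mean was 56.2% ± 9.98 without IAA and 3.72% ± 2.04 with it (SD, n = 2 each; exact permutation p = 0.333). Of the 37 members with a Rad21 peak under IAA, all had a CTCF peak in a CTCF-degron list, none had a core, and 31 had a multi-copy centre. Without IAA replicate 1, which carried 34 of the peaks, the difference was -0.106 percentage points. Among members with a centre found once it was -0.141, and without parental Rad21 replicate 1 it was -0.0239.

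In the CTCF-degron line with IAA, a Rad21 peak lay at 135, 48 and 17 members in replicates 1, 2 and 3 (7.14%, 2.54% and 0.899%). At sites with cohesin the values were 39.8%, 34.6% and 22.2%. The members were lower in each library, by -28.7 ± 6.39 percentage points (SD, n = 3; exact two-sided sign-flip permutation p = 0.25), and by -21.4 ± 5.92 within rank quartiles, which was added after the values were seen. Replicate 1 of this group has no spike-in and the longest list, with 35224 mouse peaks against 25949 and 15690. In total 147 members (7.77%) had a Rad21 peak in at least 1 of these lists, where 39.6% of all CTCF sites did, and 8 had one in all 3.

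Most of these 147 members were themselves kept in a CTCF-degron list, so their likeness to the kept members is not a separate observation. A CTCF peak in a CTCF-degron list was present at 114 of the 147, and 63 lay within 1000 bp of a parental Rad21 peak. Of those off chromosome 12, 52.9% had a multi-copy centre and 15.0% had a core, against 19.7% and 49.0% of the other members. Of the 1672 members that lost CTCF in all 3 lists, 33 (1.97%) had a Rad21 peak in a CTCF-degron list, and of the 91 that kept it in all 3, 54 (59.3%) did. Whether the peaks of both proteins at multi-copy centres come from these places or from other copies was not tested.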

How the data were processed

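Each of 16 ChIP-seq libraries has a deposited broadPeak list, and replicates were not pooled; the 8 inputs were not used here. Bowtie2 2.2.8 and SAMtools 1.8 are named in the submitters' processing notes, and per the labels the genome was mm9 joined with another sequence entry. The peak caller, its threshold and the handling of reads with several placements are not given in the sources used here. The values used are the authors' fold enrichment (column 7, a ratio) and, for 1 alternative, the -log10 q-value of the deposited lists (column 9, beside the -log10 p-value in column 8). The deposited score (column 5) was not used. Depth is unknown, so no counting interval is given.

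Mouse peaks were merged and overlapped (at least 1 bp) in Python 3.11.15 with NumPy 2.4.6 and pandas 2.3.3, with code tested on simulated peaks. A percentile rank is that of the highest peak of a list at the site, averaged over the 3 parental CTCF lists, and quartiles are over all 33715 CTCF sites. Sequence and annotation came from NCBIM37 and GENCODE vM1. Chromosome 12 was left out of both, since its peaks reach 121611197 and the reference ends at 121257530. Region classes were taken in the order transcript start (within 1000 bp), exon, intron, intergenic.

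Percents with a peak were computed per library and compared within libraries by an exact two-sided sign-flip permutation test, or between groups by an exact permutation test. The labels do not say whether replicates are separate cultures, so a p-value measures only the spread between these samples. Named sites, on chromosomes other than 12, 18, Y and M with a centre found once, were the 3 lost and 3 kept members of highest rank, the 20 of highest rank at protein-coding starts, the 2 nearest sites on each side of the rule (1 of which is not reported here), and members within 10000 bp of a start of a listed gene. The members, gene lists and tests were chosen with earlier results of these data known. Alternatives were a q-value of 0.001 or less, no Rad21 peak within 1000 bp, autosomes and X without chromosome 12, centres found once, at least 50% of the site covered, rank deciles, other distances and windows, each library left out and a replicate block. Comparison at sites with a core only, within rank quartiles for Rad21 peaks, and at unique centres for Rad21 peaks was added after the values were seen.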

Additional observations from a re-analysis of the deposited data

How the results depend on the processing

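In 67 of 71 recalculations the tested differences kept their direction, and no p-value could pass 0.05 in any of them, so none changes a call. The 4 that turned were the difference within rank quartiles without parental Rad21 replicate 1 (8.58 percentage points), and the members' Rad21 share with against without IAA without parental Rad21 replicate 1 (-0.0239), without Rad21-degron IAA replicate 1 (-0.106) and at centres found once (-0.141). Of 79 recalculated counts and untested values, 52 stayed within 1.5 times the count, 1 SD between replicates or the 95% binomial interval.

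A q-value of 0.001 or less gave 1191 members, 3.72% kept, 14.3% at a transcript start, a width difference of -231 bp and a rank difference of -33.5. With no Rad21 peak within 1000 bp, 5.32% were kept, 7.81% lay at a start and the rank difference was -28.2. Among centres found once, off chromosome 12, 2.99% were kept, and with at least 50% of the site covered 3.58%. Within 500 and 2000 bp, 5.78% and 16.9% lay at a start. The core lay in 29.0% of members in the central 100 bp.

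Over the parental libraries left out 1 at a time, members numbered 1895 to 6272, lost members 1674 to 4932, the share at a start ran from 9.57% to 14%, the share with a core from 40.6% to 46.7%, the width difference from -302 to -280 bp and the rank difference from -32.1 to -29.6. The highest counts came without Rad21 replicate 1. Over all libraries left out 1 at a time, the percent kept ran from 7.96% to 17.2%, the difference in percent kept ran from -15.9 to -3.86 and within quartiles from -12.1 to 8.58. The Rad21 difference ran from -62.5 to -48.8 in the Rad21-degron line without IAA, where 1 library remains and no test can be made, and from -32.4 to -22.8 in the CTCF-degron line. The Rad21 share of members with against without IAA ran from -0.106 to 1.27 percentage points.

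The Rad21-degron libraries with and without IAA share replicate numbers but the labels do not say that a number pairs them, and replicate 1 had the higher share of members with a Rad21 peak in both groups. With the replicate block the difference was 0.582 percentage points (exact sign-flip p = 0.5, the smallest possible), as without it. Depth is unknown, so a site without a peak in a shorter list may have been missed.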
